A study of Mus musculus with 6 samples.

Results

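The mitochondrially encoded complex I subunits are the 7 genes ND1, ND2, ND3, ND4, ND4L, ND5 and ND6 of the mitochondrial chromosome. They were taken by symbol from a table of 50763 genes, 37 of which lie on that chromosome, and all 7 passed the filter on low counts with which 16730 genes were tested. RNA was sequenced from mouse embryonic fibroblasts, a mesenchymal culture made by dissociating embryos, prepared at E13.5 from mice with a C57BL/6 background (strain C57BL/6J). The 3 K68R libraries came from mice that carry a CRISPR knock-in which replaces a lysine of SOD2 with arginine and mimics the non-acetylated protein; SOD2 is the superoxide dismutase of mitochondria. The 3 WT libraries came from wild-type mice. The labels name no transgene, Cre or treatment in either group. They call the libraries biological replicates but do not say whether these came from separate embryos or litters, so p-values measure the spread between these libraries, which may be technical.

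Complex I, the NADH:ubiquinone oxidoreductase, passes electrons from NADH to ubiquinone in the inner mitochondrial membrane and pumps protons. Its mitochondrially encoded subunits form the core of the membrane arm. ND2, ND4 and ND5 are the large antiporter-like subunits that carry proton channels, ND1 lines the ubiquinone-binding site where the arms of the enzyme meet, and ND3, ND4L and ND6 are small subunits that link these parts. The mitochondrial chromosome is transcribed from both strands into long precursors, which are cut mostly at the tRNAs that lie between the messages. ND6 is the single protein gene on the strand opposite to all others, and ND4L and ND4 stay together on 1 mature message.

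The starts of the 7 genes are shown because they identify the transcripts counted and because several do not open with the usual start codon. They were read from GENCODE M21 transcripts of build GRCm38 whose mitochondrial positions equal those of the count table, which uses build mm39. Capitals mark the first codon.
ND1: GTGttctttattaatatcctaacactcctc
ND2: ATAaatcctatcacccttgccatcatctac
ND3: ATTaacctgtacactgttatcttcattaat
ND4L: ATGccatctaccttcttcaacctcaccata
ND4: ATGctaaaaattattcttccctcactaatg
ND5: ATCaatattttcacaacctcaatcttatta
ND6: ATGaataattatatttttgttttaagttca

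In mm39 and in the order of the chromosome, ND1 lies at chrM:2751-3707, ND2 at chrM:3914-4951, ND3 at chrM:9459-9806, ND4L at chrM:9877-10173, ND4 at chrM:10167-11544 and ND5 at chrM:11742-13565, all on the plus strand. ND6 lies at chrM:13552-14070 on the minus strand. Each is 1 exon without introns. The guanine content of the gene's own strand was 28.1% in ND6 and 7.996 to 11.6% in the other 6 genes, so the sequence of ND6 stands apart in base composition as well as in strand. ND4L and ND4 share 7 bases, and ND5 and ND6 share 14 bases at their ends on opposite strands. These shared stretches bear on the counts, since a read pair that overlaps 2 genes can go uncounted by featureCounts with its default settings. Capitals mark the shared bases, each written on the strand of its gene, and the last line shows that ND4 ends on a lone T of its stop codon, which polyadenylation completes.
ND4L, last 30 bases: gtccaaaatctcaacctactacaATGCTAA
ND4, first 30 bases: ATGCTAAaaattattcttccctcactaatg
ND5, last 30 bases: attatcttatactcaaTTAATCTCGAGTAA
ND6, last 30 bases: tttattattatcgagaTTACTCGAGATTAA
ND4, last 30 bases: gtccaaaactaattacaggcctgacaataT

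Nuclear copies of mitochondrial DNA bear on the counts too, because reads that map to several places were not counted. Of all windows of 75 bases in each gene, 0% were found in an annotated nuclear transcript for ND1 and ND6, 1.66% for ND5, 5.71% for ND2, 61.5% for ND4, 97.8% for ND3 and 98.7% for ND4L. ND3, ND4L and the start of ND4 thus have near-identical annotated copies, all of them on chromosome 1. The pseudogene Gm28438 matched ND3 at 99.71% over 345 bases with the substitution T3C, counted from base 1 of ND3, with the ND3 base first. The pseudogene Gm10222 matched ND4L at 100% over 294 bases, and Gm28439 matched ND4 at 100% over its first 876 of 1378 bases, which leaves 502 bases without that copy. More diverged annotated copies were found for ND2 (Gm13339, 96.7% over 510 bases), ND5 (Gm4076, 95.2% over 954 bases) and ND6 (Gm11408, 93.6% over 519 bases). Capitals mark the differing base in the first pair, and in the ND4 line the stretch that ends with the copy, at bases 847 to 906 of the gene.
ND3: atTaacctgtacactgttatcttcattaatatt
Gm28438: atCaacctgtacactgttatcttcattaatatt
ND4: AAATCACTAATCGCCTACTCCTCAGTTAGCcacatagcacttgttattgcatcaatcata

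Library totals ran from 26200088 to 40691447 counts, and 3 counts, taken as the floor, equal 0.0737 to 0.115 CPM (counts scaled to a normalized library size). All libraries of 1 genotype lay close together, with 2.19% as the common biological coefficient of variation. Of the 16730 genes tested, 81.4% were called between the genotypes at an adjusted p under 0.05 (edgeR quasi-likelihood F test, Benjamini-Hochberg adjustment), so a call by itself sets a gene apart little. The edited gene, Sod2, had 48.9, 45.6 and 47.2 CPM across the K68R libraries, against 71.8, 68.9 and 69.2 CPM across the WT libraries, a log2 fold change of -0.57. With offsets for gene length and GC content in the model, the log2 fold change of Sod2 was -0.23. Tested against a bound of 1.5-fold, Sod2 was not called (edgeR adjusted p = 0.692).

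The 7 genes together held more of the K68R libraries than of the WT libraries. They took 0.642, 0.637 and 0.672% of all counts across the K68R libraries, against 0.378, 0.388 and 0.391% across the WT libraries. The mean share was 0.650 ± 0.0188% in K68R and 0.385 ± 0.00699% in WT (SD, n = 3), a ratio of 1.69, with no overlap between the groups. The exact two-sided permutation test gave p = 0.1, the smallest p that 3 against 3 libraries allow. All 13 mitochondrial protein genes together held 1.47 ± 0.0314% of the counts in K68R and 1.29 ± 0.0244% in WT (SD, n = 3; exact permutation p = 0.1), so their ratio of 1.15 was below that of the 7 complex I genes. In RNA from whole cultures, a different mix of cells and a different amount of mitochondrial RNA per cell cannot be told apart.

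Of the 7 genes, 6 were called higher in K68R and 1, ND3, was called lower (edgeR quasi-likelihood F test, Benjamini-Hochberg adjusted p under 0.05). Of all genes tested, 40.8% were called higher and 40.5% lower. In library values, 5 of the 7 lay wholly above WT and 1 wholly below, against 41.3% of all genes tested above and 41% below. The median log2 fold change was 0.99 for the 7 genes and -0.01 over all genes. The 6 calls do not rest on equal evidence, since 5 of the genes had 4254 counts or more in every library and ND4L had 9 to 42.

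**Figure D1:**
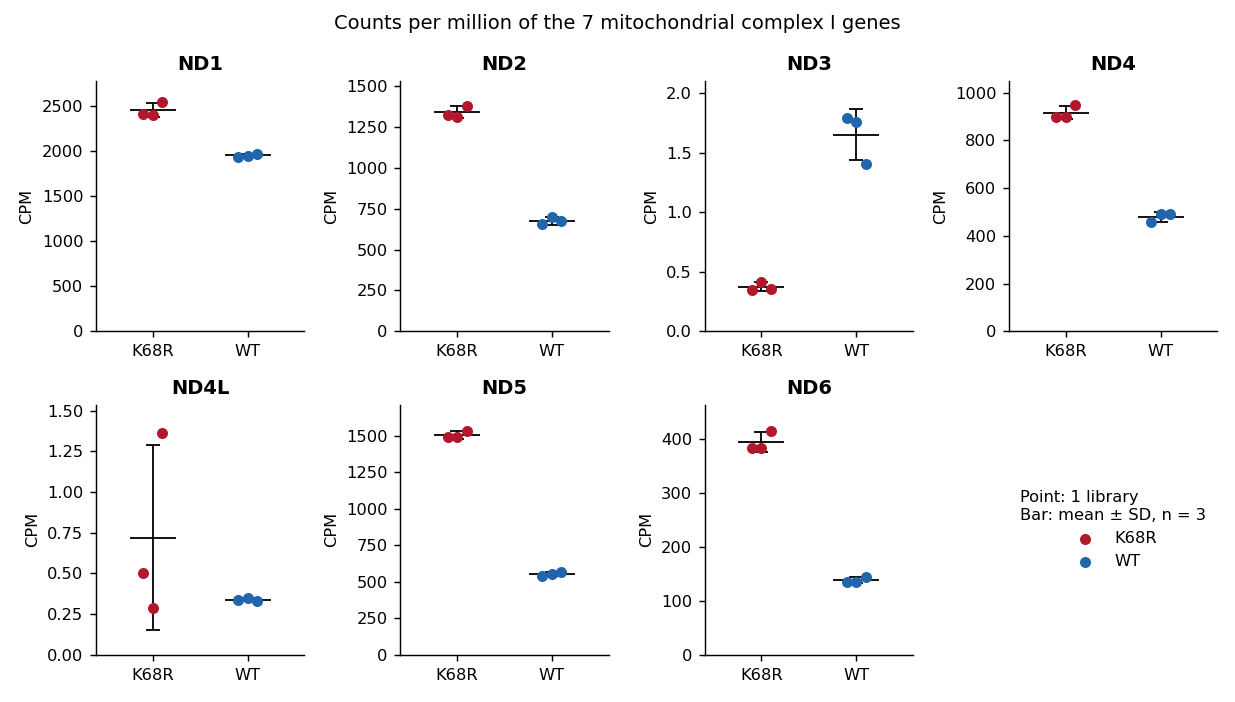
Normalized level (CPM, linear axis from 0, own scale for each gene) of the 7 genes in K68R and, to its right, WT. Points are libraries and bars the mean ± SD (n = 3). ND1, ND2, ND4, ND5 and ND6 lie higher in every K68R library than in any WT library, ND3 lies lower, and ND4L overlaps.

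ND5, which forms the far end of the membrane arm and carries a proton channel, was counted at 1491, 1489 and 1536 CPM across the K68R libraries, against 539, 557 and 569 CPM across the WT libraries. The 2 sets of values are far apart, and the spread within each is small. ND5 was 2.71-fold higher in K68R, at 1505 ± 26.8 CPM against 555 ± 15.4 CPM in WT (SD, n = 3), with a log2 fold change of 1.44 (SE 0.0187, edgeR adjusted p = 7.92e-62). Its neighbour on the opposite strand, ND6, had 384, 383 and 415 CPM across the K68R libraries, against 136, 136 and 145 CPM across the WT libraries. The groups do not overlap, and K68R replicate 3 is the highest library. ND6 was 2.84-fold higher, at 394 ± 18.6 CPM in K68R cells, against 139 ± 5.31 CPM in WT cells (SD, n = 3), a log2 fold change of 1.504 (SE 0.0328, edgeR adjusted p = 5.86e-17). ND5 and ND6 were the members with the largest fold increase. Counting ignored strand although the kit was a stranded one, so reads of the ND6 message and reads of ND5 transcripts that run on through the ND6 region cannot be told apart.

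ND2, another channel-bearing subunit, had 1328, 1313 and 1383 CPM across the K68R libraries, against 656, 699.9 and 672 CPM across the WT libraries. The groups do not overlap, and the lowest K68R value is far above the highest WT value. The level was 1341 ± 37.1 CPM in K68R cells, against 676 ± 22.4 CPM in WT cells (SD, n = 3), a log2 fold change of 0.99 (SE 0.0208, edgeR adjusted p = 3.64e-31). ND4, also a subunit of that kind, had 899, 900.1 and 947 CPM across the K68R libraries, against 457, 490.1 and 493 CPM across the WT libraries. These values do not overlap either, with WT replicate 1 the lowest. ND4 was 1.91-fold higher, at 916 ± 27.4 CPM in K68R cells, against 480.2 ± 20.1 CPM in WT cells (SD, n = 3; log2 fold change 0.93, SE 0.0283, edgeR adjusted p = 1.07e-13).

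ND1, which lines the ubiquinone site, had the most counts of the 7 and the smallest change. It was at 2413, 2397 and 2538 CPM across the K68R libraries, against 1937, 1946 and 1963 CPM across the WT libraries. Every K68R library was above every WT library, but the gap was narrow. ND1 was 1.26-fold higher, at 2449 ± 77.3 CPM in K68R cells, against 1949 ± 13.3 CPM in WT cells (SD, n = 3; log2 fold change 0.33, SE 0.0171, edgeR adjusted p = 1.19e-26). Tested against a bound of 1.5-fold, it was not called (edgeR adjusted p = 1), while the adjusted p over all its alternatives ran from 1.93e-61 to 1.

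ND3, a small subunit with a loop that moves near the ubiquinone site, was the member called lower. It had 9, 13 and 11 counts across the K68R libraries, against 74, 55 and 47 counts across the WT libraries. The groups do not overlap, but the counts are low in both. Per kb of gene, ND3 ranked 11763rd of the 16730 genes tested in K68R and 7403rd in WT. ND3 was lower by 4.38-fold, with 0.374 ± 0.0372 CPM in K68R cells, against 1.65 ± 0.217 CPM in WT cells (SD, n = 3; log2 fold change -2.13, SE 0.281, edgeR adjusted p = 3.44e-10). Since 97.8% of its 75-base windows also occur in annotated nuclear transcripts and multi-mapped reads were not counted, its direction is uncertain as a measure of the ND3 message.

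ND4L, the smallest of the 7, had 13, 9 and 42 counts across the K68R libraries, against 14, 11 and 11 counts across the WT libraries. K68R replicate 3 stands above all others, the other 5 libraries lie between 9 and 14, and the groups overlap. In CPM the K68R libraries were at 0.504, 0.288 and 1.36 and the WT libraries at 0.340, 0.352 and 0.328. The call for ND4L (log2 fold change 1.09, SE 0.414, edgeR adjusted p = 0.0164) was lost without K68R replicate 3, at a log2 fold change of 0.19 (edgeR adjusted p = 0.717), and without WT replicate 1, at 1.07 (adjusted p = 0.0541). The adjusted p over all its alternatives ran from 0.000364 to 0.717. The nuclear copy of ND4L, Gm10222, was the only such pseudogene with a row of its own, with 38, 41 and 45 counts across the K68R libraries, against 14, 13 and 13 across the WT libraries. Because the 2 sequences are identical over 294 bases, the counts of either are uncertain.

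Fold changes in these libraries varied with the length and GC content of genes, and a smooth surface over both explained 39.6% of the variance in log2 fold change over nuclear genes. At the length and GC content of the 7 genes, which run from 33.05 to 41.1% GC, the surface predicts log2 fold changes of -0.50 to -0.34, below 0. With length and GC offsets in the edgeR model, the log2 fold changes were 1.88 for ND6, 1.81 for ND5, 1.58 for ND4L, 1.35 for ND2, 1.27 for ND4, 0.74 for ND1 and -1.73 for ND3. The 6 higher calls and the 1 lower call stayed as they were, against 33.6% of genes called higher and 42.3% called lower in that fit. The offsets were fitted on nuclear genes and extended to mitochondrial ones.

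**Figure D2:**
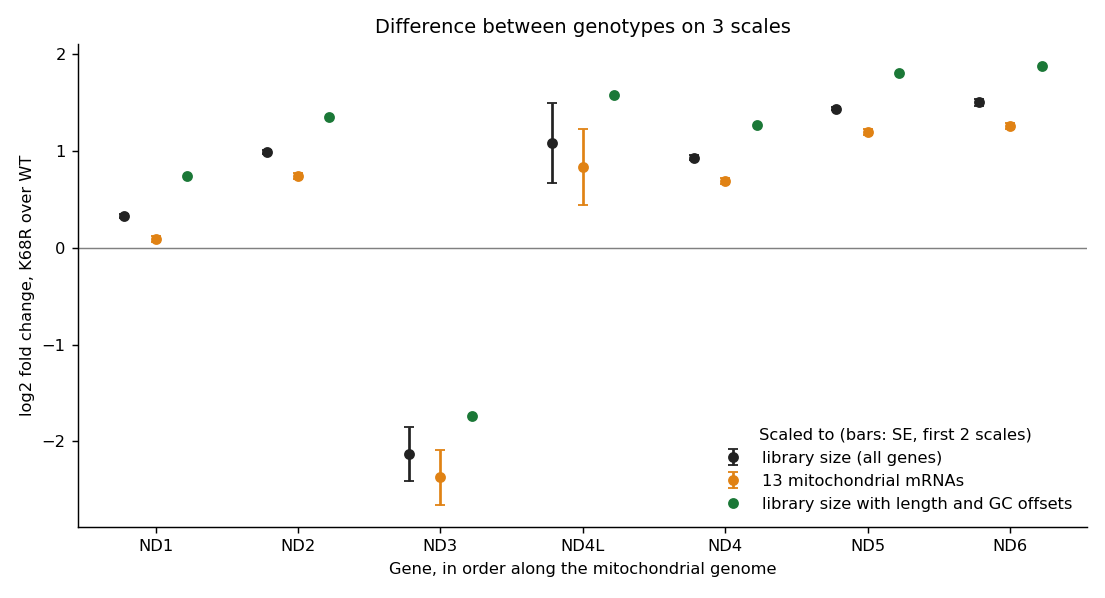
Log2 fold change of K68R over WT for the 7 genes in the order of the chromosome, on 3 scales. Black points are scaled to the library, orange points to the 13 mitochondrial messenger RNAs, both with the standard error as bars, and green points to the library with length and GC offsets, without bars. ND5 and ND6 are the highest on each of the 3 scales, and ND3 lies at -1.73 or below.

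Levels of different genes were compared per kilobase of gene (CPM per kb). In K68R the order was ND1 at 2559 ± 80.8, ND2 at 1292 ± 35.7, ND5 at 825 ± 14.7, ND6 at 759 ± 35.8 and ND4 at 664 ± 19.9 CPM per kb, with ND4L at 2.42 ± 1.91 and ND3 at 1.07 ± 0.107 far below (SD, n = 3). Only ND4L and ND3, the last neighbours in that order, had overlapping values. In WT the order was ND1 at 2036 ± 13.9, ND2 at 651 ± 21.6, ND4 at 348 ± 14.6, ND5 at 304 ± 8.44 and ND6 at 268 ± 10.2 CPM per kb, then ND3 at 4.75 ± 0.624 and ND4L at 1.14 ± 0.0398 (SD, n = 3). No neighbours overlapped in WT. ND4 thus stood behind ND5 and ND6 in K68R and ahead of both in WT. Per kb of level, ND1 ranked 6th of the 16730 genes tested in K68R and 14th in WT, and ND5 ranked 57th in K68R and 231st in WT. The place of ND4 depends on which bases could be counted. Over the 502 bases without an annotated copy, and with all its counts assigned to them, it would stand at 1824 ± 54.5 CPM per kb in K68R and 957 ± 40.0 in WT (SD, n = 3), which is second in both orders.

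**Figure D3:**
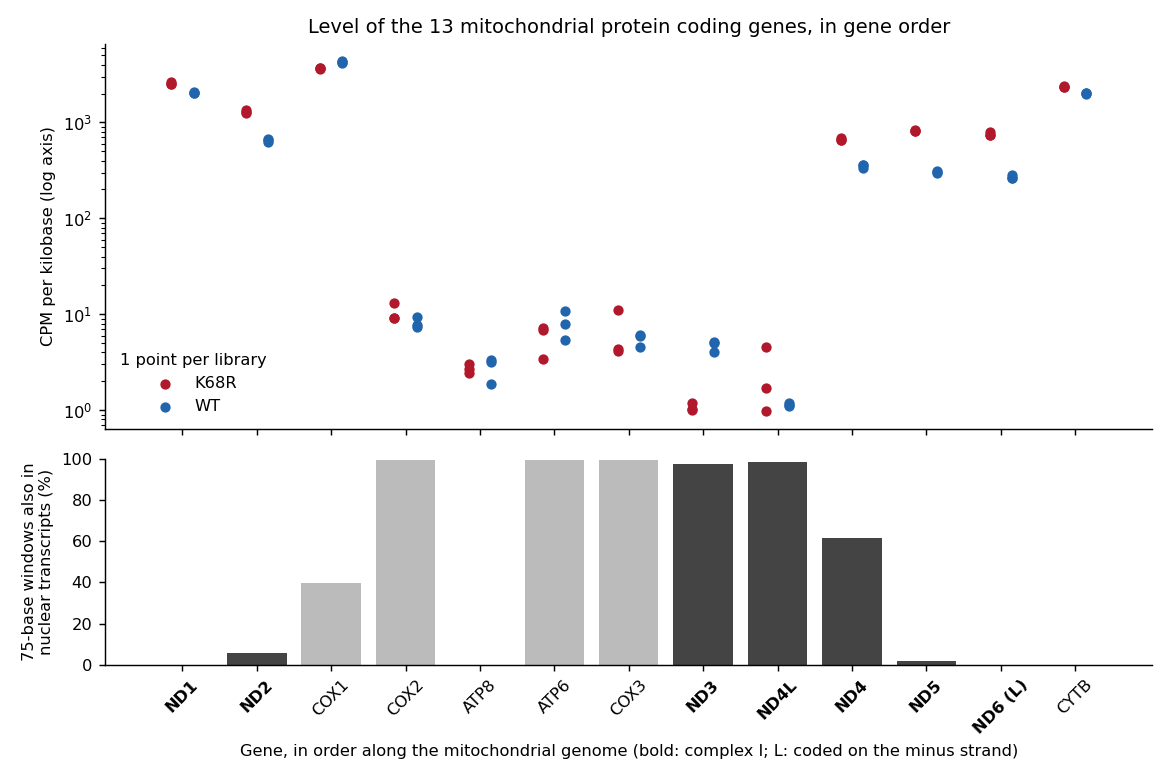
Top, level (CPM per kb, log axis) of the 13 mitochondrial protein genes in the order of the chromosome, with K68R left of WT and 1 point per library. Bottom, percent of 75-base windows also found in annotated nuclear transcripts, with dark bars for complex I genes. In every library ND3 and ND4L sit at or below 5.16 CPM per kb and the other 5 complex I genes at or above 262.

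The rise was uneven within the mitochondrial transcriptome, which was tested by using the summed counts of the 13 mitochondrial protein genes as the library size. On that scale, ND6 was at a log2 fold change of 1.26, ND5 at 1.20, ND2 at 0.75 and ND4 at 0.69 in K68R over WT (edgeR adjusted p = 1.18e-58 for ND6, 2.69e-59 for ND5, 1.37e-41 for ND2 and 1.39e-38 for ND4). ND1 was at 0.09 (edgeR adjusted p = 0.00698), and at -0.47 when the 7 genes themselves were the scale (edgeR adjusted p = 1.64e-36), so its direction flips with the scale; over all alternatives its adjusted p ran from 1.64e-36 to 0.0448. The mitochondrial scale shifts the median of all genes to -0.25, the scale of the 7 genes shifts it to -0.80, and in the first of these fits 32.5% of genes were called higher and 49.9% lower. The 7 genes made up 44.1 ± 0.379% of the counts of the 13 in K68R and 29.996 ± 0.0861% in WT (SD, n = 3; exact permutation p = 0.1). COX1, the largest of the others, made up 37.7 ± 0.352% in K68R and 51.6 ± 0.224% in WT (SD, n = 3; exact permutation p = 0.1). Of the 75-base windows of COX1, 39.8% were found in annotated nuclear transcripts, so part of its reads may have gone uncounted.

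Within the 7, ND1 accounted for 37.1 ± 0.119% of the counts in K68R and 51.3 ± 0.622% in WT (SD, n = 3). ND5 accounted for 22.8 ± 0.239% in K68R and 14.6 ± 0.182% in WT, and ND2 for 20.3 ± 0.0720% in K68R and 17.8 ± 0.422% in WT. ND4 accounted for 13.9 ± 0.0473% in K68R and 12.6 ± 0.315% in WT, and ND6 for 5.96 ± 0.111% in K68R and 3.66 ± 0.113% in WT (SD, n = 3 each). Thus ND1 held a smaller share of the 7 in K68R and the other 4 held larger ones. These shares did not overlap between the genotypes. They add up to a whole, so a larger share of 1 gene lowers the others.

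Ratios of 2 genes in the same library do not depend on library size, and 5 were computed. The ratio of ND5 to ND4, neighbours on the plus strand, was 1.66, 1.65 and 1.62 in the K68R libraries and 1.18, 1.14 and 1.15 in the WT libraries. That is 1.64 ± 0.0197 in K68R and 1.16 ± 0.0211 in WT (SD, n = 3), 1.42-fold higher with no overlap. The ratio of ND1 to ND2 was 1.82, 1.83 and 1.84 in the K68R libraries and 2.95, 2.78 and 2.92 in the WT libraries, 1.58-fold lower and also without overlap. The ratio of ND6 to ND5, on opposite strands, moved least of the non-overlapping ratios. It was 0.257, 0.257 and 0.270 in the K68R libraries and 0.252, 0.244 and 0.255 in the WT libraries, 0.262 ± 0.00760 in K68R and 0.250 ± 0.00558 in WT (SD, n = 3). For these 3 ratios and for ND3 to ND4, which was 8.40-fold lower in K68R, the exact two-sided permutation test gave p = 0.1, the smallest possible over 20 assignments, or 0.125 adjusted over the 5 ratios. The ratio of ND4L to ND4, which lie on 1 message, overlapped between the groups, with a log2 difference of -0.15 (exact permutation p = 0.7).

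**Figure D4:**
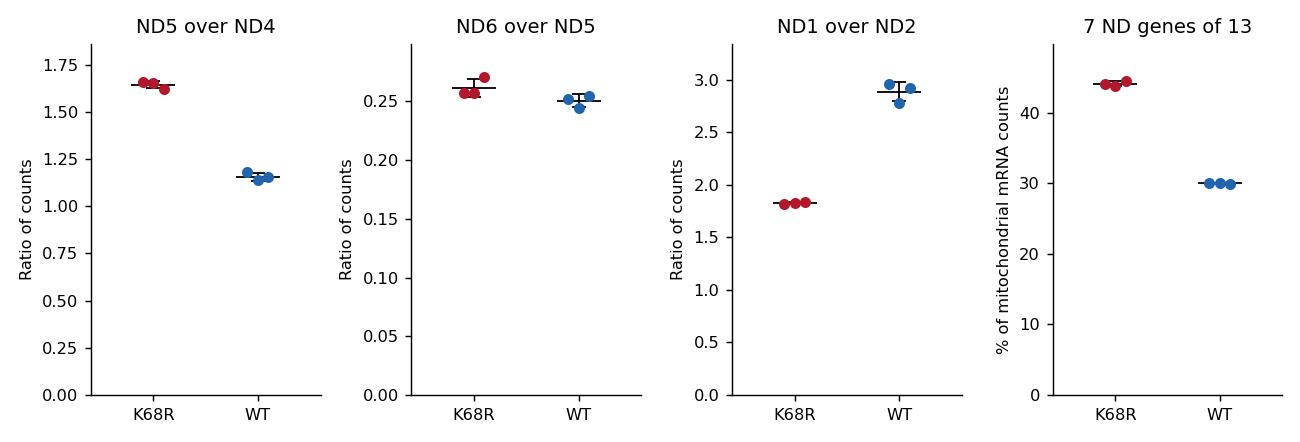
Count ratios of ND5 to ND4, ND6 to ND5 and ND1 to ND2, and percent of the counts of the 13 mitochondrial protein genes held by the 7 complex I genes, with K68R left of WT. Points are libraries, bars the mean ± SD (n = 3), and axes start at 0. The groups do not overlap in any of the 4 panels, and ND6 to ND5 differs least, at 0.262 in K68R and 0.250 in WT.

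Of the other 6 protein genes of the chromosome, CYTB and COX1 had by far the most counts, and both changed less than ND2, ND4, ND5 and ND6. CYTB, the mitochondrially encoded subunit of complex III, was at 2716 ± 47.0 CPM in K68R cells, against 2311 ± 36.02 CPM in WT cells (SD, n = 3; log2 fold change 0.23, edgeR adjusted p = 2.36e-21). COX1, the catalytic subunit of cytochrome c oxidase, was at 5639 ± 94.1 CPM in K68R cells, against 6543 ± 130 CPM in WT cells (SD, n = 3; log2 fold change -0.21, edgeR adjusted p = 1.79e-20), and at 0.22 with the length and GC offsets, so its direction flips with that setting. COX2 was called higher at a log2 fold change of 0.36 (SE 0.117). COX3 (0.20, SE 0.475), ATP6 (-0.42, SE 0.407) and ATP8 (-0.06, SE 0.333) were not called. Like ND3 and ND4L these 4 genes had few counts, so the size of their change is uncertain. Of the 75-base windows, 99.5% of COX2, 99.9% of COX3 and 99.5% of ATP6 were found in annotated nuclear transcripts, against 0% for ATP8. Only annotated transcripts were searched, so the 0% does not show that ATP8 lacks a nuclear copy.

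Complex I is built from these subunits and from nuclear ones, and the nuclear genes were mostly lower without length and GC offsets. Of the 7 core subunits encoded in the nucleus, which hold the NADH site and the iron-sulfur clusters, all 7 were called lower in K68R, beside 40.5% of all genes tested, with a median log2 fold change of -0.58. Ndufv1, the subunit that binds NADH, was at 86.4 ± 2.73 CPM in K68R cells, against 151 ± 3.30 CPM in WT cells (SD, n = 3; log2 fold change -0.81, edgeR adjusted p = 8.89e-38). Ndufv2, an iron-sulfur subunit beside it, had a log2 fold change of -0.64. In the fit with offsets all 7 were still called lower, beside 42.3% of all genes, at a median of -0.22.

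Of the 30 accessory subunits, which surround the core, 29 were called lower and 1, Ndufv3, higher, with a median of -0.56. Over all genes tested in that fit, 40.5% were called lower and 40.8% higher. Ndufb8 was at 72.6 ± 1.24 CPM in K68R cells, against 118 ± 3.62 CPM in WT cells (SD, n = 3; log2 fold change -0.70, edgeR adjusted p = 2.01e-32). Ndufb11 and Ndufb3 had log2 fold changes of -0.78 and -0.89. With length and GC offsets the split was 14 lower, 5 higher and 11 not called, at a median of -0.08, beside 42.3% of all genes called lower and 33.6% higher in that fit. Of the 18 assembly factors tested, proteins that help build complex I without staying in it, 16 were called lower and 2 were not called, at a median of -0.63. With offsets 15 were lower and 2 higher. The shares of all genes given for the accessory subunits apply here too. Dmac1 was at 20.4 ± 1.54 CPM in K68R cells, against 39.2 ± 0.399 CPM in WT cells (SD, n = 3; log2 fold change -0.95, edgeR adjusted p = 2.73e-27), and Ndufaf8 and Ndufaf4 had log2 fold changes of -1.03 and -0.72.

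Factors that act on mitochondrial RNA were also mostly lower. Of 20 genes for its processing and stability, 16 were called lower, 3 higher (Fastk, Tbrg4 and Elac2) and 1 was not called, at a median of -0.42, beside 40.5% of all genes tested called lower and 40.8% higher. With offsets 13 were lower and 3 higher, beside 42.3% of all genes called lower and 33.6% higher in that fit. The 3 higher ones were other genes, Rexo2 at 0.20, Hsd17b10 at 0.11 and Trmt10c at 0.10. With the offsets Fastk was at a log2 fold change of -0.32, Tbrg4 at -0.92 and Elac2 at -0.19, so their direction flips with that setting. Slirp, a partner of LRPPRC in keeping mitochondrial messages stable, was at 19.9 ± 1.94 CPM in K68R cells, against 37.7 ± 0.956 CPM in WT cells (SD, n = 3; log2 fold change -0.93, edgeR adjusted p = 3.29e-25). Pnpt1, the mitochondrial polynucleotide phosphorylase, and Mrpl12, a ribosomal protein that also binds the RNA polymerase, had log2 fold changes of -0.64 and -0.56. Of 11 genes for transcription or maintenance of the chromosome, 9 were called lower (beside 40.5% of all genes), 1 higher (beside 40.8%) and 1 was not called. With offsets 7 were lower (beside 42.3% of all genes), 1 higher (beside 33.6%) and 3 not called. The 1 that rose, Polrmt, encodes the mitochondrial RNA polymerase and was at 35.8 ± 1.92 CPM in K68R cells, against 3.96 ± 0.309 CPM in WT cells (SD, n = 3; log2 fold change 3.18, edgeR adjusted p = 2.05e-48). With the offsets its log2 fold change was 1.09, and the surface predicts 2.19 for a gene of its length and GC content. Tfam, which packages mitochondrial DNA and starts its transcription, fell to 24.8 ± 0.411 CPM in K68R, against 48.5 ± 0.869 CPM in WT (SD, n = 3; log2 fold change -0.96, edgeR adjusted p = 6.51e-31), and Mterf3 had a log2 fold change of -0.62.

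**Figure D5:**
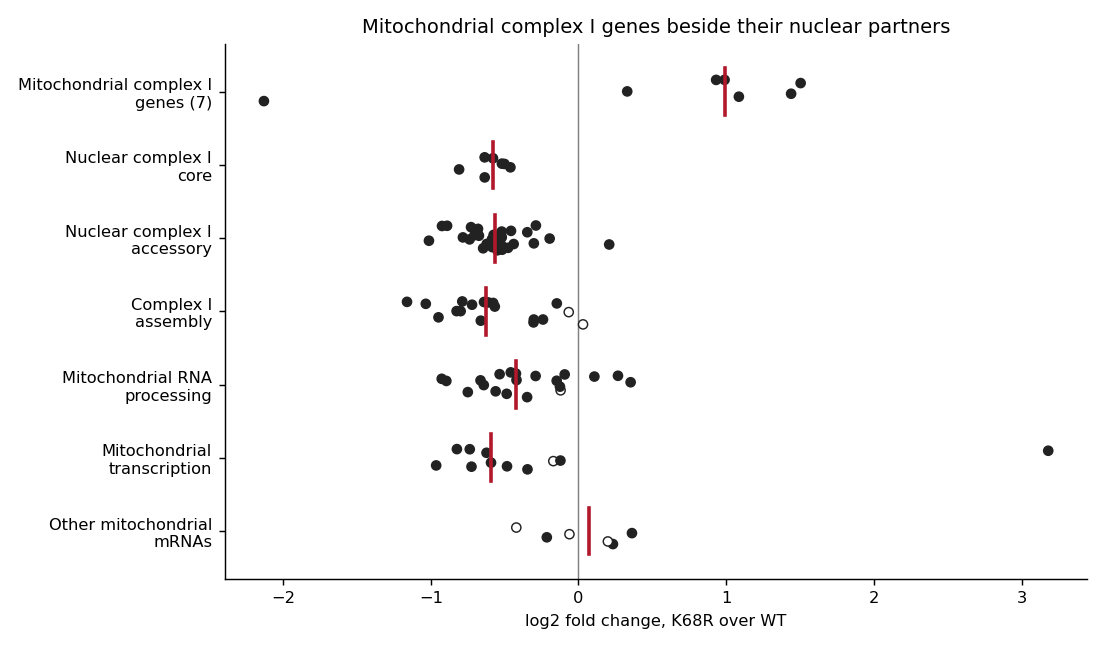
Log2 fold change of K68R over WT for each tested gene of the complex I subunits, assembly factors, RNA factors and transcription or maintenance factors. Each point is 1 gene, red lines are the medians of the lists, and open circles are genes not called. The bottom row holds the other 6 mitochondrial protein genes. The median of the 7 mitochondrially encoded subunits lies at 0.99 and the medians of the nuclear lists lie between -0.63 and -0.42.

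Markers of cell types differed between the genotypes too, and their part in the results was not tested. The calls below stand beside 40.8% of all genes tested called higher and 40.5% called lower. The 10 fibroblast markers summed to 13448 to 13542 CPM in K68R and 7857 to 7960 CPM in WT, with 5 called higher and 4 lower. All 10 were counted in both groups, but they moved in both directions. Their log2 fold changes ran from -2.48 for Pdgfra to 3.89 for Col1a1. Vim, which was not called, was at 4983 CPM in K68R cells against 4905 CPM in WT cells. The markers of skeletal and cardiac muscle, which is rich in mitochondria, summed to 295 to 296 CPM in K68R and 103 to 104 CPM in WT. All 10 tested of the 11 were called higher. Among them Myf5, with 11, 14 and 20 counts in K68R and 5, 0 and 0 in WT, passed the filter through K68R alone. Endothelial markers summed to 93.8 to 95.8 CPM in K68R and 23.9 to 26.1 CPM in WT, but that sum is mostly Kdr, the 1 of 4 called higher, with 90.7 CPM in K68R cells against 20.4 CPM in WT cells, while Pecam1 (0.488 CPM in K68R and 0.677 CPM in WT), Cdh5 (0.974 CPM in K68R and 1.09 CPM in WT) and Tek (2.93 CPM in K68R and 2.91 CPM in WT) were not called. The 4 neural markers summed to 53.7 to 55.2 CPM in K68R and 33.5 to 35.9 CPM in WT with 3 higher and 1 lower. The 7 macrophage markers summed to 133 to 139 CPM in K68R and 145 to 147 CPM in WT, with 2 called higher and 3 lower. The 5 epithelial markers summed to 18.4 to 20.4 CPM in K68R and 42.3 to 43.5 CPM in WT, and all 5 were lower. Among these, Krt14, with 9, 5 and 1 counts in K68R and 254, 198 and 217 in WT, passed the filter through WT alone. The erythroid markers summed to at most 0.465 CPM in K68R and 0.863 CPM in WT, and Hba-a1 and Hbb-bt, the globin genes, had 0 counts in all K68R libraries.

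The summed level of the 7 genes was 6515, 6483 and 6822 CPM across the K68R libraries, against 3726, 3831 and 3845 CPM across the WT libraries. The nuclear genes nearest to that pattern were sought among 11358 genes at 5 CPM or more, by the root mean square distance between log2 CPM values centred on each gene's mean over the 6 libraries. Among the 5 nearest were B630019K06Rik at 0.0171, Nup188 at 0.0221, Dyrk2 at 0.0227 and Mgrn1 at 0.0232. With 2 genotypes and 6 libraries, this distance mostly measures the size of the genotype difference.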

How the data were processed

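Poly(A) RNA was sequenced in 3 K68R and 3 WT libraries. Per the labels' protocols, libraries were made with a stranded kit from 1.0 ug of total RNA with an integrity number above 4. The submitters' processing notes name featureCounts 2.0.6, HISAT2 2.2.1, SAMtools, bcl2fastq and the build mm39. The deposited values are the authors' raw counts, 1 per read pair, with no normalization. Per the file headers, counting used exons of the NCBI RefSeq annotation with no strand option and no option to count multi-mapped reads. The deposited exon length of each gene was used for levels per kb. The sources used here give no read length, so copies were searched in windows of 75 bases, and windows of 100 bases gave 97.6% for ND3, 98.5% for ND4L and 60.8% for ND4. Copies were sought with blastn 2.17.0 in annotated nuclear transcripts alone.

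Samples were grouped by genotype. Libraries of the same genotype were compared pairwise, with a chi-square per gene from 1.85 to 2.29, which exceeds sampling noise, and each was kept as a replicate. The counts were fitted with edgeR 4.0.16 under R 4.3.3 (filterByExpr defaults, TMM, robust quasi-likelihood F test, Benjamini-Hochberg over all genes tested, threshold 0.05). CPM uses TMM-normalized library sizes, and log2 CPM a prior count of 2. Length and GC offsets came from an mgcv 1.9.3 surface fitted on nuclear genes, with GC from GENCODE M21 for 15692 of the 16730 genes (93.8%). The fit was tested on simulated data. Alternatives were DESeq2 1.42.0 and its size factors, limma-voom (limma 3.58.1), upper quartile and nuclear scaling, no filter or 1 CPM in 3 libraries, a replicate block, a 1.5-fold bound, the offsets, and leaving out each library. Single values were tested by exact two-sided permutation. The floor is 3 counts and covers counting error only. All 7 genes were named, with up to 3 called genes of each list by smallest p and with 5 CPM or more in 1 genotype. Ndufv3, Fastk, Tbrg4, Elac2, Rexo2, Hsd17b10, Trmt10c, Kdr, Pdgfra, Col1a1, Vim, Myf5 and Krt14 were named after their values were seen. The members and lists were chosen with earlier results of these data known. Some genes that the naming rule selects are not reported here.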

Additional observations from a re-analysis of the deposited data

How the results depend on the processing

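ND2, ND3, ND4, ND5 and ND6 kept their direction and their call under all 16 alternatives, with log2 fold changes of 0.87 to 1.35 for ND2, -2.25 to -1.73 for ND3, 0.82 to 1.27 for ND4, 1.33 to 1.81 for ND5 and 1.39 to 1.88 for ND6. The number of genes called was 6855 with the 1.5-fold bound, against 13613, and 13403 to 13637 with 1 library left out. The upper quartile scale shifts the median of all genes to -0.12. With the 1.5-fold bound ND1 (0.33) and ND4L (1.09, edgeR adjusted p = 0.0961) were not called. ND4L was not called by DESeq2 (1.09, adjusted p = 0.0516) or limma-voom (0.78, adjusted p = 0.0855), ran from 0.19 to 1.48 with 1 library left out, and has no value under the 1 CPM filter, which removes it. Per mitochondrial messenger RNA, ND1 was at -0.47 and ND4L at 0.29 with the 7 genes as scale, and ND4L ran from -0.0325 to 1.23 with 1 library left out, the lowest without K68R replicate 3, and was not called without any 1 of the WT libraries. The log2 ratio of ND4L to ND4 ran from -0.74 to 0.34, the highest without K68R replicate 2. The cause of these changes was not tested.

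The 1.5-fold bound left 2 of 7 nuclear core subunits, 10 of 29 accessory subunits and 7 of 16 assembly factors called lower. It also left 5 of 16 RNA factors and 3 of 9 transcription or maintenance factors called lower. Of all genes, 14.9% were lower and 26.1% higher in that fit. The bound left 0 of the other 6 mitochondrial protein genes called, and 0 accessory subunits and 0 RNA factors called higher. Among those 6 genes, 2 were called lower with a replicate block and without K68R replicate 1, and 1 higher without K68R replicate 1 or WT replicate 1. Replicate numbers do not pair the libraries, since deviations of same-numbered libraries correlated at -0.00947, 0.0135 and 0.0130, and 2 of 6 libraries correlated best with their own number. With a replicate block 13567 genes were called, the log2 fold changes were 0.33 for ND1, 0.99 for ND2, -2.12 for ND3, 0.93 for ND4, 0.98 for ND4L (edgeR adjusted p = 0.0245), 1.44 for ND5 and 1.503 for ND6, and ND4L was at 0.73 per mitochondrial messenger RNA (edgeR adjusted p = 0.0820). Low counts limit ND3 and ND4L, and with 3 libraries a side no permutation p can fall below 0.1.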

Other observations

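The tRNA and ribosomal RNA rows of the mitochondrial chromosome held values that enter no comparison above. TrnE, the tRNA gene that lies just before the start of ND6 on the minus strand, had 181, 236 and 288 counts in the K68R libraries and 36, 32 and 36 counts in the WT libraries. It was 8.11-fold higher in K68R (log2 fold change 3.02, SE 0.153, edgeR adjusted p = 1.46e-28), more than any complex I gene. Of the tRNA rows with enough counts to test, 6 lay on the minus strand (TrnP, TrnE, TrnY, TrnC, TrnN and TrnA) and 2 on the plus strand (TrnW and TrnL1). All were called higher, beside 40.8% of all genes tested. TrnY, TrnA and TrnW, with 8 to 20 counts in the WT libraries, passed the filter through K68R, where they are higher. The calls of these 3 are therefore no support for a rise. TrnY was 5.30-fold and TrnA 3.20-fold higher, and TrnN 1.27-fold. Libraries made from poly(A) RNA hold few mature tRNAs, and counting ignored strand, so these rows cannot be told apart from unprocessed precursor or from reads of the opposite strand. The ribosomal RNA rows had log2 fold changes of 0.42 for mt-Rnr1 (edgeR adjusted p = 0.0182) and -0.21 for mt-Rnr2, which was not called.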
